A study of Drosophila melanogaster with 12 samples.

Results

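The genes described here are Mitf and 2 classes of genes that it is known to control in flies, the subunits of the vacuolar proton pump (V-ATPase) and the autophagy genes named Atg. They were chosen by symbol: every row of the count table named Mitf, starting with Vha, or made of Atg and a number. That gave 54 of the 17737 genes in the table, namely Mitf, 33 Vha genes and 20 Atg genes. The rule used no measured value, but the set was proposed with earlier results of these data known, so its counts describe the members and are not independent support for any of them. The Vha genes were divided by general knowledge into 17 main genes (9 for the V1 sector, 7 for the V0 sector and the accessory protein VhaAC45) and 16 other paralogs, many of them known from tissues such as the testis or gut.

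Mitf is the single fly member of the family of transcription factors that in mammals includes TFEB and TFE3. When nutrient signalling through the TOR kinase is low, the factor enters the nucleus and drives genes for lysosomes and autophagy. The V-ATPase acidifies lysosomes and synaptic vesicles: its V1 sector hydrolyses ATP in the cytosol and its V0 sector carries protons across the membrane. The Atg proteins build the autophagosome, the double membrane that delivers cell contents to the lysosome.

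RNA came from whole heads of Drosophila melanogaster aged 3 to 5 days, with 5 to 10 flies pooled for each library. PIG-A, which encodes an enzyme of the first step of GPI anchor synthesis, was knocked down with one RNAi line (BDSC 62696) under ELAV-GAL4, which acts in neurons, or REPO-GAL4, which acts in glia. In the controls the same driver was crossed to AttP flies (BDSC 36304), so that both groups of a pair carried the driver. Each of the 4 groups had 3 libraries labelled as biological replicates, and the flies received no treatment. The question was how loss of PIG-A in either cell type changed expression in the head, and any change in neurons or glia was read in RNA of all head cells. In such bulk samples, fewer cells of a type and less RNA per cell cannot be told apart.

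The libraries held 20694850 to 31893782 counts, of which the members took 0.580 to 0.731%. Levels are given in CPM, counts scaled to a common library size. PIG-A itself was low, with 3.62 to 5.19 CPM in the neuron controls against 2.54 to 3.05 in the neuron-specific knockdown, and 4.81 to 4.86 in the glia controls against 3.99 to 5.28 in the glia-specific knockdown. The groups of the neuron pair did not overlap and those of the glia pair did. Neuronal elav (95.9 to 129.8 CPM) and glial repo (41.0 to 61.2 CPM) were present in every library. The methods describe male flies, and the labels give no sex. The yolk protein genes Yp1, Yp2 and Yp3, which are female markers, summed to between 40894 and 186642 CPM. Of the male RNAs, roX1 had 1.47 to 7.47 CPM and roX2 at most 0.199 CPM. In every library these markers were at odds with the male flies of the methods, and the sex was not tested further. A pair of libraries, neuron knockdown 3 and glia control 3, stood apart together: their muscle markers summed to 12931 and 13665 CPM against 2657 to 4060 in the other 10. Their neuron markers were also the highest, at 4921 and 4675 CPM against 3217 to 4270, and their roX RNAs the lowest, at 1.55 and 2.14 CPM against 4.72 to 7.54. Changes of V-ATPase genes that moved with these libraries are given with and without them.

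Mitf was expressed at a modest level in the head and was upregulated in the glia-specific knockdown. It lies on chromosome 4 (1198852 to 1224467, plus strand, BDGP Release 6, the build of the labels), and no exon of another gene overlaps its exons. The glia controls had 36.7, 32.0 and 39.7 CPM and the glia-specific knockdowns 81.3, 84.8 and 79.1. Every knockdown library was thus above every control library. The level was 36.1 ± 3.90 CPM (SD, n = 3) in controls and 81.7 ± 2.84 (SD, n = 3) in knockdowns. The log2 fold change was 1.17 (SE 0.11, 95% interval 0.92 to 1.43), a 2.26-fold increase with an adjusted p of 0.00972 by edgeR's quasi-likelihood test. A call needed an adjusted p no higher than 0.05 together with a change of 1.5-fold or more. By p-value Mitf ranked 9 of 9951 genes tested, and by size of change it ranked 359.

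**Figure D1:**
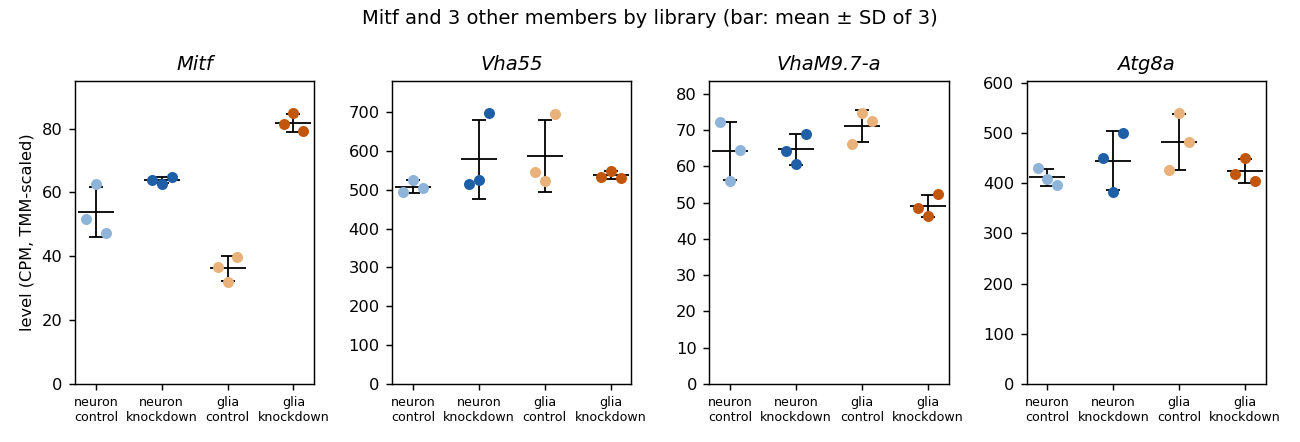
Levels of Mitf, Vha55, VhaM9.7-a and Atg8a in CPM after TMM scaling (y axes from 0) in the 12 libraries by group (x axis), with points for libraries and bars for the mean ± SD of 3. Mitf lies at 79.1 to 84.8 CPM in the glia-specific knockdown against 32.0 to 39.7 in its controls, while Vha55 is highest in 1 neuron knockdown and 1 glia control library.

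This call was close to its threshold when a library was left out. Over the 6 fits without 1 library the log2 fold change stayed between 1.09 and 1.25, but the adjusted p ranged from 0.00185 to 0.0505 and Mitf was called in 3 of 6, being lost without glia control 1 (0.0503), glia knockdown 2 (0.0505) or glia knockdown 3 (0.0502). Without glia control 3, the library that stood apart, the change was 1.25 with an adjusted p of 0.00185.

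In the neuron pair Mitf had 51.8, 62.7 and 47.4 CPM in controls and 64.0, 62.8 and 64.7 in the knockdowns. The groups did not overlap, by a margin smaller than the spread of the controls. The log2 fold change of 0.24 (SE 0.11, 95% interval −0.02 to 0.50) did not pass the test (adjusted p = 0.378, edgeR). The difference between the knockdowns, tested as an interaction over 12 libraries, was −0.93 for the neuron change minus the glia change (SE 0.15, 95% interval −1.27 to −0.60, adjusted p = 0.00850, edgeR). It was called in all 12 fits that left out 1 library, and stood at −1.02 (adjusted p = 0.00832) without both libraries that stood apart.

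The 2 kinds of control flies differed as well. Mitf was 1.49-fold higher in the neuron controls than in the glia controls (log2 difference 0.58, SE 0.11, adjusted p = 0.0106, edgeR), just under the fold threshold. In order of level the groups were glia control, neuron control, neuron knockdown and glia knockdown. The step between neuron control and neuron knockdown did not pass the test, and that between the 2 knockdown groups was not tested directly. The comparison of the knockdown changes uses these controls, so the lower level of the glia controls enters it. The drivers also differ in strain, which cannot be told apart from the cell type they mark.

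Some cell markers and the median gene of chromosome 4 were also higher in the glia-specific knockdown. The sum of 8 glia markers was 2049 to 2870 CPM in glia controls and 2673 to 2929 in glia-specific knockdowns, with 7 of 8 higher. The groups overlapped through glia control 3 (2870 CPM), the other 2 controls being at 2049 and 2282. Among them moody, a receptor of blood-brain barrier glia, passed the adjusted test under the fold threshold (log2 fold change 0.57, adjusted p = 0.0217, edgeR), and alrm, an astrocyte gene, was called (log2 fold change 0.64, adjusted p = 0.0444, edgeR). The 5 head fat body markers summed to 2625 to 5131 CPM in glia controls and 7152 to 13226 in knockdowns, and of the 4 tested 3 were higher. The median log2 change of those tested was only 0.14 (range −0.33 to 1.40). None passed the adjusted test (lowest adjusted p = 0.0697, edgeR). The 4 haemocyte markers summed to 416 to 546 and 562 to 708 CPM, but 2 were higher and 2 lower with a median log2 change of −0.04, the rise of the sum being that of Hml (0.75, adjusted p = 0.128, edgeR). The 8 neuron markers overlapped, at 3217 to 4675 and 3697 to 3920 CPM. None of these markers was at 0 in every library. Over the other 89 genes of chromosome 4 tested, the median change in the glia pair was 0.21 on the log2 scale, against −0.02 for all genes. The largest change among them, 1.40, is the same value as the largest of the fat body markers, so these lists share a gene. Of these 89 genes 1 was called, against 3.6% of all genes. The median was −0.12 in the neuron pair, opposite in sign to Mitf, with 0 called against 0.16% of all genes. For the difference between the knockdowns the median over 92 genes was −0.38, with 4 called against 3.01% of all genes. Between the controls it was 0.25, with 5 called against 4.78% of all genes. Both of these medians had the sign of Mitf, but the 2 comparisons share the control libraries. The part of these markers and of the chromosome in the changes of Mitf was not tested.

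Of the V-ATPase genes, the main genes were abundant in every library and most other paralogs were nearly silent. Levels per length of exon, in CPM per kb and averaged over the 12 libraries, ran from 44.3 for Vha100-2 to 327 for Vha16-1 among the 17 main genes. Vha16-1 encodes the c subunit that forms the rotating ring of V0, of which each pump holds several copies. Vha13 (subunit G) stood at 213, Vha55 (subunit B, of the catalytic head) at 199, Vha36-1 (subunit D, of the central stalk) at 135 and Vha68-1 (the catalytic subunit A) at 132 CPM per kb. Both genes for subunit A were used at similar levels, Vha68-2 being at 113 CPM per kb. Of the genes for subunit a, which ties the proton path to the stator, Vha100-1 stood at 96.6 and Vha100-2 at 44.3.

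Of the 16 other paralogs, 3 passed the filter on low counts and 13 did not. VhaAC45RP, a relative of VhaAC45, had 123.9 to 191.6 CPM, or 96.9 CPM per kb on average, within the range of the main genes. VhaM9.7-c (subunit e) had 17.3 to 29.3 CPM and Vha36-3 (subunit D) 9.39 to 17.6 CPM. The paralogs Vha100-3, Vha16-2, Vha16-4, VhaM9.7-d and VhaPPA1-2 had 0 counts in all 12 libraries, which allows up to 0.0941 to 0.145 CPM in a library (3 counts of its total, counting error only). Vha16-3 had 1 count in all, Vha68-3 had 5, Vha100-4 had 10, Vha16-5 had 11, Vha14-2 had 22, Vha100-5 had 25, and VhaAC39-2 and Vha36-2 had 29 each. These counts are too low to compare groups. Paralogs share sequence, and how reads that match more than 1 gene were counted is not given in the sources used here, so levels of close copies are uncertain.

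**Figure D2:**
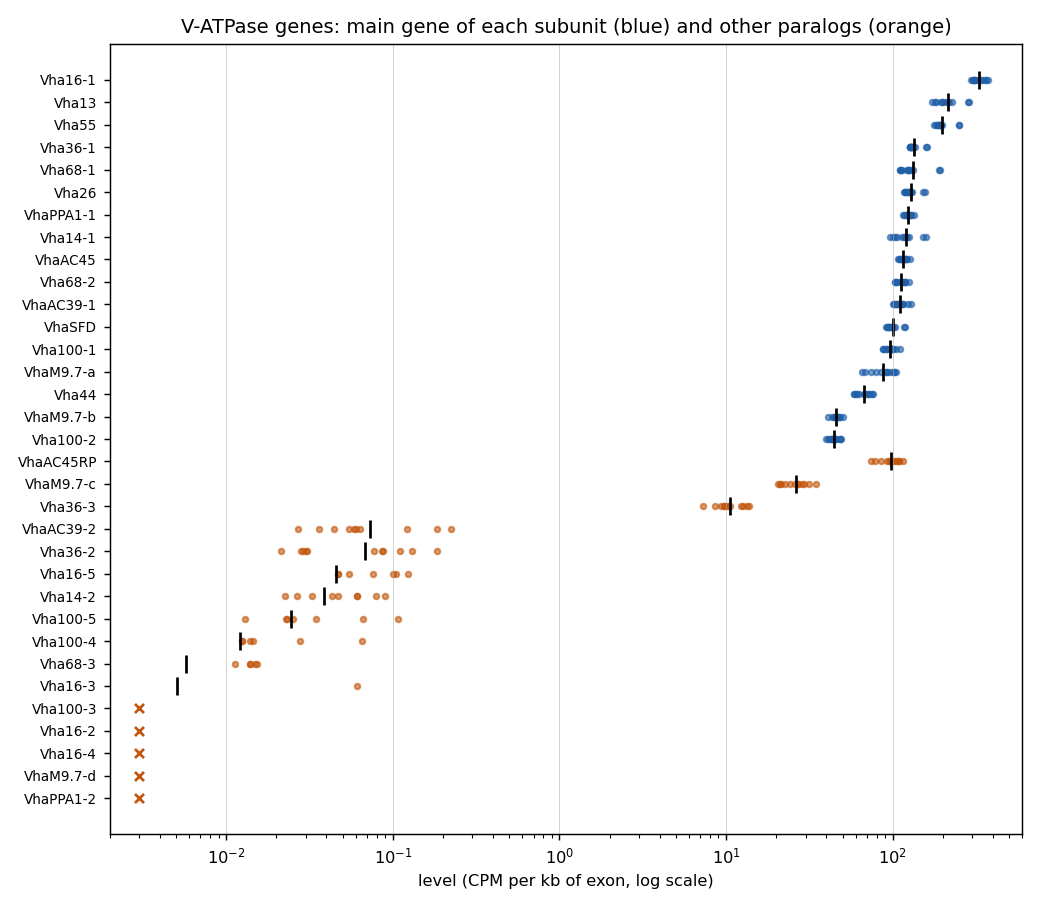
Level of each of the 33 V-ATPase genes in CPM per kb of exon (log x axis), with 1 point for each library with counts and a bar at the mean of 12 libraries, zeros included, for main genes in blue and other paralogs in orange (crosses at the left edge for the 5 with 0 counts). The main genes lie at 44.3 or more on average, and among the other paralogs VhaAC45RP, at 96.9, reaches their range.

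None of the 20 V-ATPase genes tested was called in the glia-specific knockdown. As 3.6% of all genes were called there, a count of 0 is near the background. Of the 40 members that passed the filter, Mitf was the 1 called, against 3.6% of all genes tested. At the adjusted p alone, whatever the fold, 2 passed (Mitf and VhaM9.7-a), against 4.22% of all genes. The median log2 fold change of the 17 main V-ATPase genes was −0.13 (range −0.54 to 0.05), against −0.02 for all genes, with 15 lower and 2 higher. The V1 and V0 main genes had the same median of −0.13. Without glia control 3 the median was −0.040, with 13 lower and 4 higher, and that of all genes was 0.00.

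VhaM9.7-a, which encodes a small membrane subunit e of V0, had 66.1, 74.6 and 72.5 CPM in the glia controls and 48.4, 46.4 and 52.4 in the glia-specific knockdowns. The groups were well apart and every knockdown was below every other library of the study. The log2 fold change was −0.54 (SE 0.09, adjusted p = 0.0277, edgeR), a 1.45-fold lower level and under the fold threshold. Over the fits without 1 library it was −0.59 to −0.49 with an adjusted p of 0.0213 to 0.141. Its paralog VhaM9.7-b was at 58.1 ± 3.36 and 56.1 ± 2.41 CPM (SD, n = 3 each), overlapping.

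The other paralogs that could be tested lay lower in the same pair without passing the adjusted test. VhaAC45RP had 178.0, 158.2 and 182.2 CPM in the glia controls and 130.4, 123.9 and 141.7 in the knockdowns (log2 fold change −0.39, SE 0.11, adjusted p = 0.0958, edgeR). Vha36-3 had 17.6, 16.3 and 17.4 against 13.2, 11.1 and 13.7 CPM (−0.43, SE 0.12, adjusted p = 0.0855, edgeR). VhaM9.7-c had 22.8, 26.7 and 21.9 against 17.3, 18.1 and 19.1 CPM (−0.39, adjusted p = 0.0843, edgeR), and without glia control 3 its adjusted p was 0.0396 with a change of −0.44, still under the fold threshold. In each of these genes the groups did not overlap. No main V1 gene passed the adjusted test, with or without glia control 3. Vha13 had a log2 fold change of −0.40 (adjusted p = 0.159, edgeR) and of −0.25 without that library, Vha14-1 (subunit F) of −0.39 (adjusted p = 0.118, edgeR) and −0.26, and Vha68-1 of −0.37 (adjusted p = 0.326, edgeR) and −0.13. Vha55 had −0.13 with it and 0.01 without it, Vha26 (subunit E) −0.07 and 0.07, and Vha68-2 0.02 and −0.04. The groups of the glia pair did not overlap in 11 of 40 members, against 29.5% of all genes. Of these, Mitf and Atg17 were above the controls, and Vha13, Vha14-1, Vha16-1, Vha36-3, VhaAC39-1, VhaAC45RP, VhaM9.7-a, VhaM9.7-c and Atg14 were below.

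**Figure D3:**
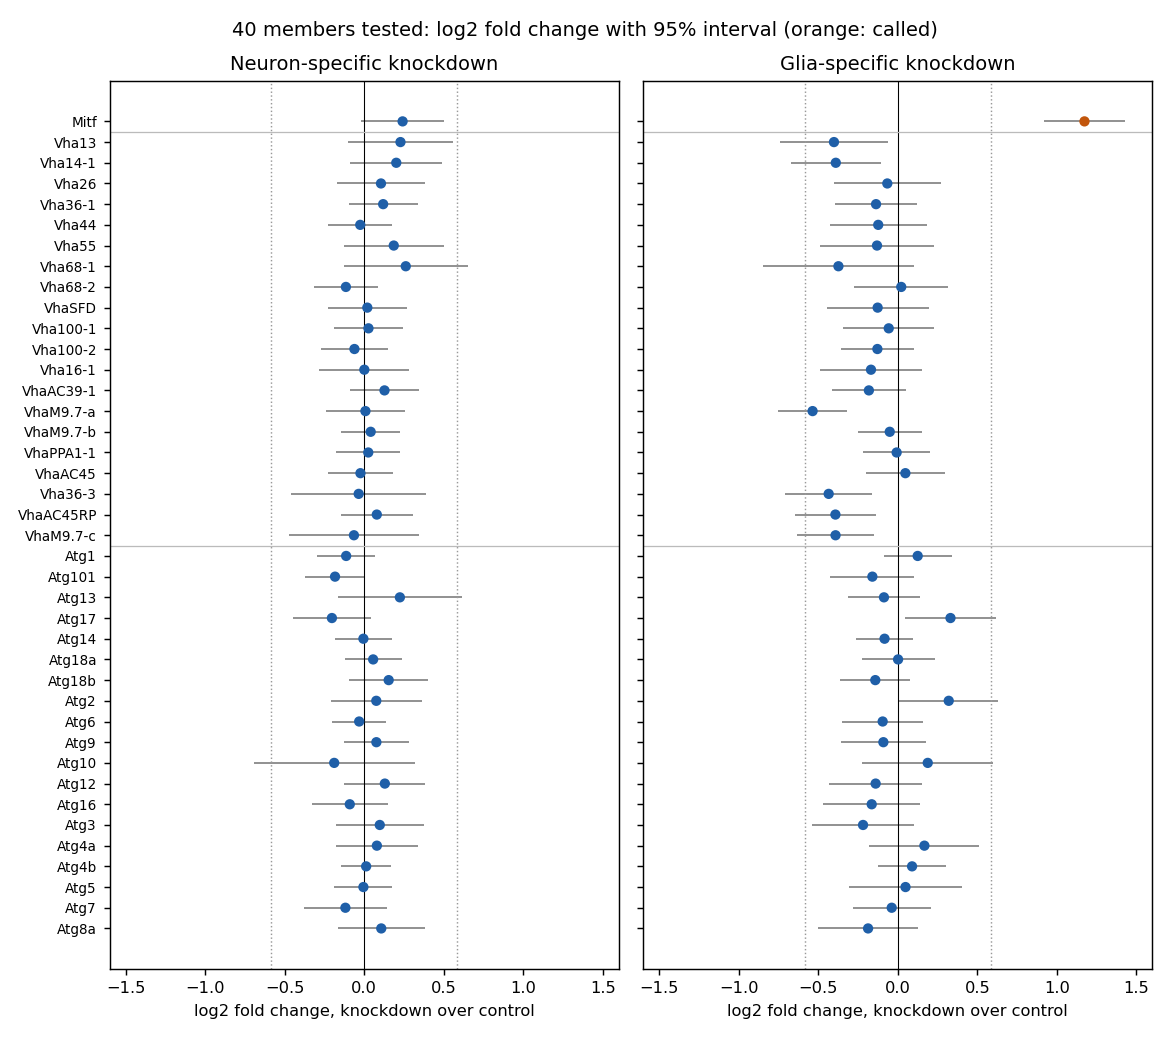
Log2 fold change of knockdown over control (x axis) with its 95% interval for the 40 members tested (rows: Mitf, V-ATPase, Atg) in the neuron pair (left) and the glia pair (right), with dotted lines at 1.5-fold and called members in orange. Mitf in the glia pair, at 1.17, is the 1 called point, and the Atg genes there lie between −0.22 and 0.33.

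In the neuron-specific knockdown none of the 40 members was called. Only 0.16% of all genes tested were, so that a count of 0 is near the background. None of the members had an unadjusted p under 0.05 in edgeR. DESeq2 also called 0 of 48 tested, and 1 of them had an unadjusted p below 0.05. The 17 main V-ATPase genes had a median of 0.03 on the log2 scale (13 higher and 4 lower), the V1 genes among them 0.12 and all genes 0.00. Besides Mitf, the members with the largest changes were Vha68-1 (0.26, adjusted p = 0.519), Vha13 (0.23, adjusted p = 0.504), Atg13 (0.22, adjusted p = 0.582) and Atg17 (−0.20, adjusted p = 0.428), all by edgeR. Without neuron knockdown 3, Vha68-1 stood at 0.04, Vha13 at 0.07, Vha14-1 at 0.06 (from 0.20) and the median of the main genes at −0.02. Groups did not overlap in 3 of 40 members, against 21.6% of all genes. Mitf and Vha68-1 were above the controls and Atg101 below.

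Many V-ATPase genes of the V1 sector were highest in the pair of libraries with high muscle RNA, which belong to different drivers and genotypes. In neuron knockdown 3 and glia control 3, 8 of the 9 main V1 genes were above all 10 other libraries, as were 2 of the 7 main V0 genes (Vha16-1 and VhaAC39-1) and 1 of the 19 Atg genes tested (Atg18b). Over all genes the share was 13.3%. Vha68-1 had 512 and 507 CPM in these libraries against 296 to 356 elsewhere. Vha55 had 697 and 695 CPM against 494 to 549, and Vha13 had 267 and 269 against 162 to 213. The exception was the other gene for subunit A: Vha68-2 had 287 and 284 CPM, at the low end of the 286 to 345 of the other libraries.

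The first of these libraries was a knockdown in the neuron pair and the other a control in the glia pair, so their high V1 levels enter the 2 comparisons with opposite signs. The difference between the knockdowns had a median of 0.17 over the 17 main V-ATPase genes with both libraries and of 0.02 without them (0.02 and −0.0023 over all genes). Deviations of the pair from their group means correlated at 0.738 over 10257 genes, against −0.608 to 0.503 for other pairs between groups, as a description over genes that share libraries. The muscle and neuron markers were highest in the same libraries as these V1 genes, and the roX RNAs were lowest there. The glia markers summed to 2983 and 2870 CPM in these libraries, against 1843 to 2929 elsewhere. The part of these RNAs in the V1 levels was not tested.

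**Figure D4:**
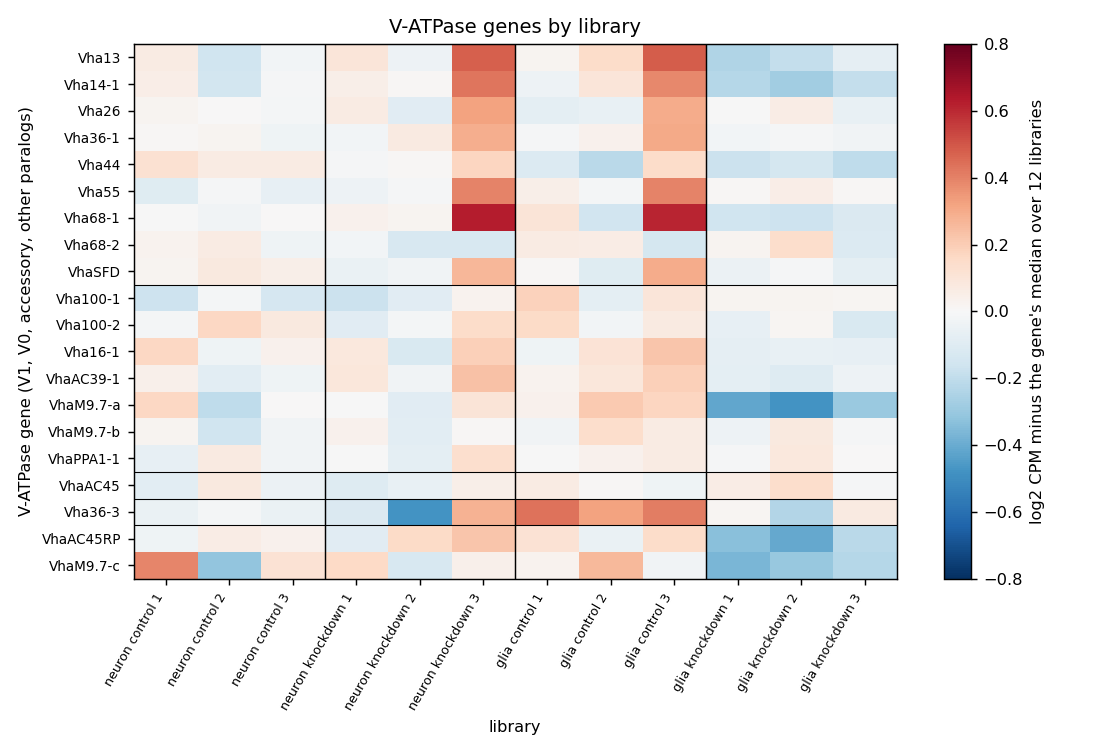
Heat map of the 20 V-ATPase genes tested (rows, in blocks of main V1, main V0, accessory and other paralogs) over 12 libraries (columns), coloured by log2 CPM minus the median of the gene over the libraries. The V1 rows other than Vha68-2 are highest in neuron knockdown 3 and glia control 3, and VhaM9.7-a is lowest in the 3 glia knockdown libraries.

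No Atg gene was called in either pair, where 3.6% (glia) and 0.16% (neuron) of all genes were, so that a count of 0 of 19 is near the background. The median change of the 19 tested was −0.08 (log2) in the glia pair, 8 being higher and 11 lower, against −0.02 for all genes. It was 0.01 in the neuron pair, 10 being higher and 9 lower, against 0.00 for all genes. Atg8b, a paralog of the autophagosome marker Atg8a, had 28 counts in all and was not tested. Atg8a itself, which is joined to lipid on the autophagosome membrane, was the most abundant at 260 CPM per kb, against 43.9 for Atg3, the enzyme that joins it. Its levels were 427.5, 539.7 and 483.0 CPM in glia controls and 419.7, 450.5 and 404.8 in glia-specific knockdowns, which overlapped (log2 fold change −0.19, adjusted p = 0.454, edgeR).

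The Atg1 kinase complex starts autophagosome formation. Atg1 stood at 30.7, Atg101 at 35.0, Atg17 at 25.9 and Atg13 at 14.2 CPM per kb. Atg17, the scaffold of the complex, had 124.6, 153.9 and 118.8 CPM in the glia controls and 157.8, 166.9 and 175.6 in the glia-specific knockdowns (log2 fold change 0.33, SE 0.12, adjusted p = 0.167, edgeR). In the neuron pair it had 179.0, 185.8 and 202.9 CPM in controls and 150.9, 186.3 and 156.3 in knockdowns. Atg17 was, like Mitf, higher in the neuron controls than in the glia controls (log2 difference 0.51, SE 0.12, adjusted p = 0.0241, edgeR). None of the 40 members was called between the controls, against 4.78% of all genes, and 2 passed the adjusted p alone (Mitf and Atg17), against 7.38%.

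The lipid kinase, transfer and membrane genes came next. Atg2, the lipid transfer protein, stood at 25.9 CPM per kb and had a log2 fold change of 0.32 in the glia pair (adjusted p = 0.216, edgeR). Atg18a was at 31.4, Atg9 (the membrane-spanning member) at 21.4, Atg6 at 18.7, Atg18b at 17.6 and Atg14 at 16.8 CPM per kb, with log2 fold changes of −0.14 to 0.00 in the glia pair. None of the 6 genes of this group passed the adjusted test in either pair.

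The conjugation genes had the widest range of levels. After Atg8a and Atg3 came Atg12 at 21.6, the proteases Atg4a at 20.7 and Atg4b at 11.2, Atg5 at 12.6, Atg16 at 9.90, Atg7 (the activating enzyme) at 7.08 and Atg10 at 2.06 CPM per kb. Mitf, at 12.8 CPM per kb, lay within this range. Exons of Atg4a, Atg4b, Atg10, Atg12, Atg14, Vha44 and Vha100-1 overlap those of other genes, as do those of Vha16-2, Vha100-4, Vha100-5 and VhaPPA1-2 among the members not tested. The counting of strand is not given in the sources used here, so the reads of these genes may include those of a neighbour. Atg10 also overlaps a gene on its own strand (CG12822), which counting by strand would not separate. Among the tested members the overlap ran from 11 of 3289 exon bases in Vha100-1 to 2098 of 4078 in Atg4a, with 760 of 1516 in Atg10.

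The other main V-ATPase genes had levels in the same range. Of V0, VhaPPA1-1 (subunit c'') was at 123 CPM per kb, VhaAC39-1 (subunit d) at 111 and VhaM9.7-b at 45.9. Of V1, Vha26 was at 128, Vha14-1 at 119, VhaSFD (the regulatory subunit H) at 99.9 and Vha44 (subunit C) at 66.8, and VhaAC45 was at 116 CPM per kb. VhaAC45 and VhaPPA1-1 had log2 fold changes of 0.05 and −0.01 in the glia pair and of −0.02 and 0.03 in the neuron pair. Their 95% intervals in the glia pair ran from −0.20 to 0.29 and from −0.22 to 0.20.

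Between the knockdowns, Mitf was the 1 member of 40 whose change differed by the called threshold, against 3.01% of all genes. VhaM9.7-a had a difference of 0.54 (adjusted p = 0.0645), VhaAC45RP of 0.47 (adjusted p = 0.0959), Vha14-1 of 0.59 (adjusted p = 0.105) and Atg17 of −0.53 (adjusted p = 0.104), by edgeR. These did not pass. Without both libraries that stood apart they were 0.48, 0.37, 0.32 and −0.43. Those of Vha13 and Vha68-1 went from 0.63 and 0.63 to 0.32 and 0.16.

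Other genes of the same pathways, from lists written from general knowledge, were mostly without a call, beside 3.6% of all genes called in the glia pair and 0.16% in the neuron pair. Of 17 other autophagy genes in the glia-specific knockdown, 1 rose (log2 fold change 0.62, adjusted p = 0.0491, edgeR). It was lt, a subunit of the HOPS tether that joins autophagosomes to lysosomes. Its levels were 42.0, 43.2 and 47.4 CPM in glia controls and 68.8, 78.1 and 56.7 in the glia-specific knockdowns. The neuron controls had 51.2, 81.4 and 53.0 CPM, so 1 of them lay above every glia-specific knockdown. Of 15 lysosomal genes tested in the glia pair, 1 rose and 1 fell. The first was spin, a lysosomal transporter, which went from 171 ± 19.2 to 269 ± 22.6 CPM (SD, n = 3 each; log2 fold change 0.65, adjusted p = 0.0396, edgeR). The other was Hexo1, a hexosaminidase, with 118 ± 10.2 and 70.4 ± 1.94 CPM (SD, n = 3 each; log2 fold change −0.75, adjusted p = 0.0141, edgeR). None of 15 genes of the TOR pathway that regulates Mitf was called in the glia pair, and none of the genes of these lists was called in the neuron pair.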

How the data were processed

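The deposited table holds raw counts of reads per FlyBase gene for 12 libraries made with a stranded mRNA kit. To make it, the authors used seqtk for trimming, Bowtie2 for alignment to dm6 (BDGP Release 6) and SAMtools for sorting. How reads were then assigned to genes, and whether by strand, is not given in the sources used here. The symbol column of a glia result table that the authors deposited supplied 103 gene names, Vha44 among them. Another 17599 came from a gene name table and 35 identifiers kept no symbol. Columns of the authors' own comparisons (fold changes, p-values) were not used.

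Counts were fitted in R 4.3.3 with edgeR 4.0.16 (TMM scaling, filterByExpr, quasi-likelihood F test, two-sided), over the 6 libraries of a driver, or over 12 for the difference between knockdowns and for the controls. P-values were adjusted by Benjamini-Hochberg over all genes tested. The scripts were tested on simulated data. DESeq2 1.42.0, its size factors, no filter, no fold threshold, a replicate block and leaving out libraries were tried. Leaving out both libraries that stood apart at once was chosen after seeing the data. Levels are TMM-scaled CPM, divided by exon length (Ensembl 115) where given per kb. Depth was 20694850 to 31893782 counts, and the precision given is that of 3 libraries in a group. Labels call the replicates biological and do not name separate crosses, so p-values measure the spread between these samples. Samples were grouped by genotype label.

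The members and lists were chosen with earlier results of these data known. The text names Mitf, every member called in any comparison, the 5 members with the largest change in each knockdown, each main gene by its level, members under the filter by their counts, PIG-A, and up to 3 called genes of each other list. moody, Hml, Yp1, Yp2, Yp3, roX1, roX2, elav and repo, members at unadjusted p, and members whose groups did not overlap were named after their values were seen.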

Additional observations from a re-analysis of the deposited data

Results flagged for a closer look

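The change of Mitf differed between the 2 knockdowns by a test of the difference itself: the neuron-specific minus the glia-specific log2 fold change was −0.93 (SE 0.15, adjusted p = 0.00850, edgeR), with 0.24 in the neuron pair and 1.17 in the glia pair. The glia controls had the lowest levels of the 4 groups (32.0 to 39.7 CPM) and the glia-specific knockdowns the highest (79.1 to 84.8 CPM). With 3 libraries in each group, no group was large enough to test a single library as an outlier.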

How the results depend on the processing

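With 3 libraries in a group, single libraries changed some calls. Leaving out 1 library each, the count of members called was 0 in the neuron pair throughout. In the glia pair it was 0 to 1 (0 without glia control 1, knockdown 2 or knockdown 3). For the difference between knockdowns it was 1 to 2 (2 without glia control 2, Mitf and Atg17). Between the controls it was 0 to 1. The member called there was Mitf without neuron control 1 or 3 or without glia control 1 or 3. Without glia control 2 it was a member other than Mitf. With no threshold on the fold, 2 members were called in the glia pair and 2 between the controls. DESeq2 called 2 for the difference (Mitf and Vha14-1). Without both libraries that stood apart, 1 was called between the controls (Mitf). The median log2 fold change of the main V-ATPase genes in the glia pair ranged from −0.18 to −0.040 over the fits without 1 library, the latter without glia control 3. DESeq2 gave Mitf in the glia pair an adjusted p of 9.08e-15, and VhaM9.7-a one of 2.5e-04. No change of sign occurred among called results. Of 151 values for single members under these settings, 142 kept their side of the threshold for a call, 6 gained a call and 3 lost it.

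Same-numbered control and knockdown libraries did not deviate together (correlations −0.05 to 0.00 in the neuron pair and −0.15 to 0.15 in the glia pair), so the numbers were not taken as pairs. With a replicate block, 0 members were called in the neuron pair, 1 in the glia pair (Mitf, 1.18, adjusted p = 0.0309, edgeR), 1 for the difference and 0 between the controls, and VhaM9.7-a had an adjusted p of 0.0594. Over all genes, edgeR called 8 up and 8 down in the neuron pair where DESeq2 called 177 and 102, and 266 and 92 in the glia pair where DESeq2 called 467 and 230. The cause of these differences was not tested. At these depths, paralogs with 29 counts or fewer in all cannot be compared between groups.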
